A study of Homo sapiens with 12 samples.

Results

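The enzymes described here carry glucose through glycolysis, the pentose phosphate pathway and glycogen. They are 33 genes of the 62702 in the count table, chosen by symbol: 17 enzymes from hexokinase to lactate dehydrogenase, 3 bifunctional PFKFB enzymes, 3 subunits of pyruvate dehydrogenase, 5 pentose phosphate enzymes and 5 glycogen enzymes. All 33 were found, and 31 had enough counts to be tested. The exceptions were both aldolases, ALDOA with 6 counts and ALDOC with 47 counts over all 12 libraries.

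RNA came from 786-O, an established human line of clear cell renal carcinoma known to have lost VHL function, so that HIF2A is not degraded. Each of 4 groups had 3 libraries. They were parental cells, cells with an inducible shRNA to the HIF2A gene EPAS1 (shHIF2A), cells with shRNAs to the 3 AP-1 genes JUN, JUNB and JUND (shJUNs), and cells with shRNAs to YAP1 and to WWTR1, which encodes TAZ (shYAPTAZ). All 4, parental included, had doxycycline for 72 hours, and the shRNA lines had been under antibiotic selection (puromycin, blasticidin, hygromycin) according to how many genes they silence. The labels call the 3 libraries of a group technical replicates, so each p-value measures only the spread between these libraries. A control shRNA line was not analysed here, so an effect of a knockdown and any other difference between the lines cannot be told apart. In bulk RNA, fewer cells with a transcript and less of it per cell also cannot be told apart.

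In glycolysis glucose is phosphorylated, split into triose phosphates and turned into pyruvate, which lactate dehydrogenase reduces to lactate or the pyruvate dehydrogenase complex passes to the mitochondria. The pentose phosphate pathway branches off at glucose 6-phosphate and supplies NADPH and ribose, and glycogen is made from and broken down to glucose 1-phosphate. Clear cell renal carcinomas are known for stored glycogen and lipid and for high glycolysis, and several glycolytic genes are textbook HIF targets, many of them preferring HIF1A, which 786-O is known to lack as a working protein. Most steps have several isoforms from different genes, so each step is described isoform by isoform.

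The libraries held 2272459 to 4469956 counts, of which 3 counts are worth 0.671 to 1.32 CPM (counts scaled to the library total). Mitochondrial transcripts took 6.33% to 9.37% of counts. All 9 markers of a renal or carcinoma line had counts. Against parental cells LHX1 was called 2.37-fold lower in shHIF2A and 4.99-fold lower in shJUNs, and VIM 1.58-fold lower in shHIF2A. CA12 was called lower in shHIF2A (8.74-fold), shJUNs (6.08-fold) and, with overlapping libraries, shYAPTAZ (2.52-fold). KRT8 was called higher in shHIF2A (1.95-fold), shJUNs (3.37-fold) and shYAPTAZ (1.87-fold), and KRT18 in shHIF2A (2.55-fold) and shJUNs (3.49-fold). PAX8, PAX2, CDH2 and NNMT were not called against parental cells. Of 15 markers of blood, endothelial, fibroblast, fat, liver and neural cells 6 were at 0 throughout, among them CD3E, PECAM1, CDH5, ADIPOQ and APOA2, and the 15 summed to 4.52 to 13.96 CPM in parental libraries, 13.4 to 29.8 CPM in shHIF2A, 4.88 to 7.21 CPM in shJUNs and 11.8 to 36.8 CPM in shYAPTAZ. The highest of the 15 were SNAP25 (neural) and LUM (fibroblast). SNAP25 had means of 0.375 CPM in parental cells, 3.20 CPM in shHIF2A, 2.75 CPM in shJUNs and 23.5 CPM in shYAPTAZ. It was called 53.8-fold higher in shYAPTAZ (adjusted p = 6.16e-05). LUM was 6.96, 17.5, 2.02 and 0.425 CPM in the same order, called lower in shYAPTAZ (adjusted p = 0.00227). The part of these markers in the results was not tested. The targeted transcripts EPAS1 in shHIF2A, JUN and JUND in shJUNs, and YAP1 and WWTR1 in shYAPTAZ were below every parental library. JUNB was called 1.70-fold lower in shJUNs (adjusted p = 0.034) with overlapping libraries. It was 103, 111 and 125 CPM there and 97.0, 213 and 266 CPM in parental replicates 1 to 3. EPAS1 was also lower in shJUNs, at 37.1 ± 1.20 CPM against 203 ± 59.6 CPM in parental cells (SD, n = 3 each), and was called 1.80-fold lower in shYAPTAZ with overlapping libraries (adjusted p = 0.0361). In shHIF2A the level of JUN was 80.2 CPM, below the 153 CPM of parental cells (adjusted p = 0.00103) and near the 85.6 CPM of shJUNs. JUND was called 1.61-fold lower in shHIF2A (adjusted p = 0.00312) and 2.09-fold lower in shYAPTAZ (2.71e-05).

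Together the 33 enzymes took 1.06% to 1.15% of the counts of a parental library, 0.893% to 0.941% in shHIF2A, 1.07% to 1.17% in shJUNs and 1.05% to 1.23% in shYAPTAZ. The shHIF2A libraries lay below every other library in this share. Genes were tested with edgeR's quasi-likelihood test over all 12 libraries and called where the p-value, adjusted by Benjamini-Hochberg over all 12301 genes tested, was under 0.05. In shHIF2A 3 of 31 members rose and 7 fell, where 9.84% of all genes rose and 8.8% fell. In shJUNs 4 rose and 6 fell, against 10.3% and 8.93% of all genes. In shYAPTAZ 7 rose and 3 fell, against 13.0% and 12.3% of all genes. The 3 that rose in shHIF2A became 1 without parental replicate 1 or 2 or shHIF2A replicate 1 or 3. All genes that rose there went from 1211 to between 772 and 943 in these fits. The 4 that rose in shJUNs became 2 without parental replicate 1 or shJUNs replicate 2. For all genes that count went from 1271 to 872 and 889. The 6 that fell in shJUNs became 3 without shJUNs replicate 3, where all genes went from 1099 to 672. In a fit of the 6 libraries of a comparison 1 member rose in shHIF2A and 4 in shYAPTAZ. All genes that rose went from 1211 to 1085 and from 1599 to 1166 there. The median log2 fold change of the members against parental cells was -0.09 (shHIF2A), 0.04 (shJUNs) and -0.03 (shYAPTAZ), and that of all genes was 0.01, -0.00 and 0.02. The 3 comparisons share the parental libraries. When any difference among the 4 groups was asked for, 19 of the 31 members and 38.7% of all genes passed.

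**Figure D1:**
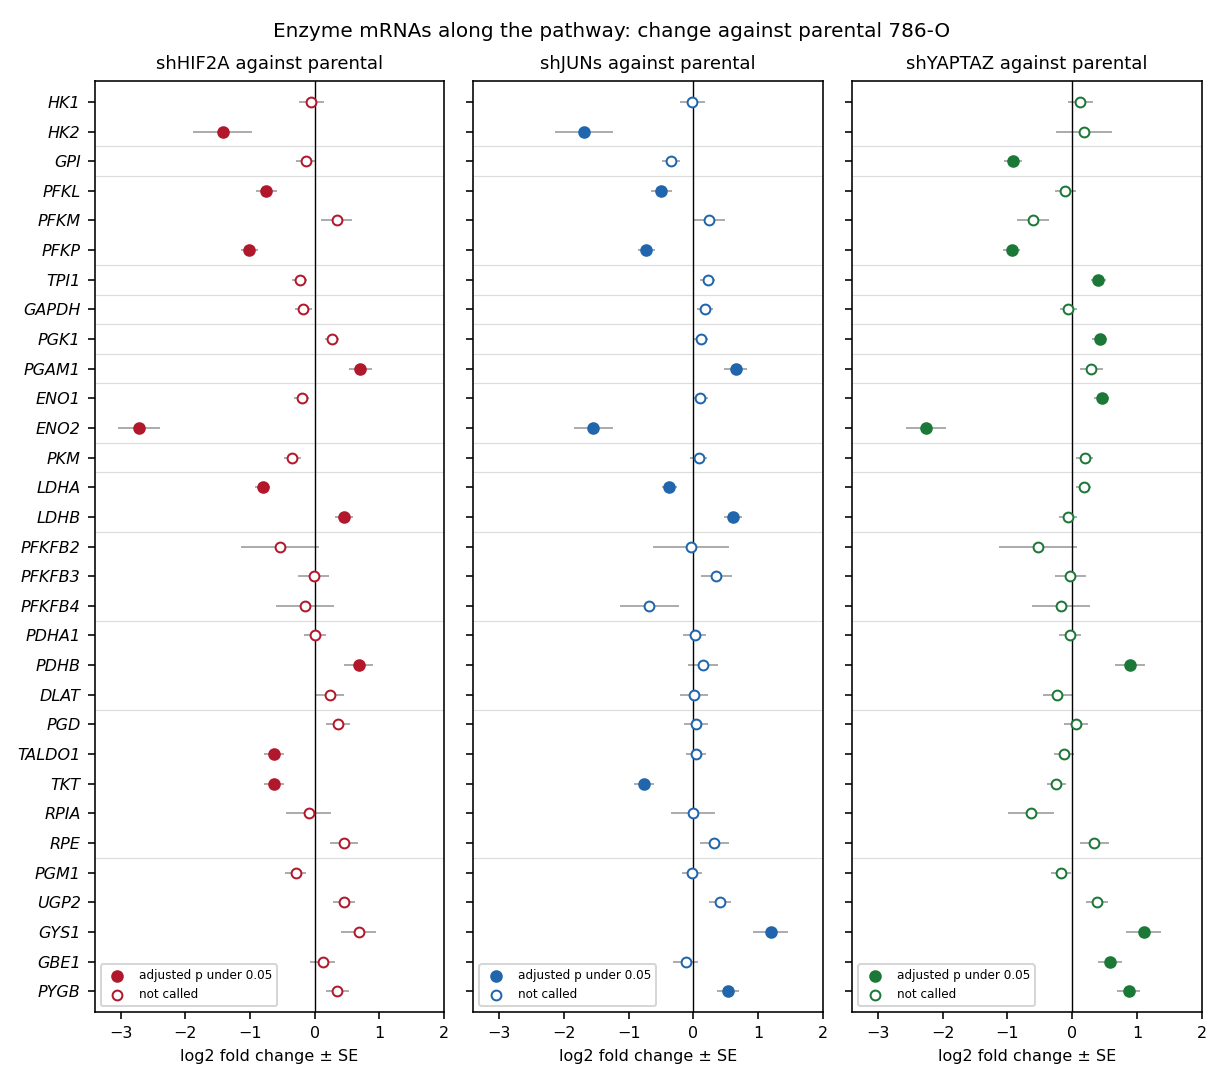
Log2 fold change ± SE of the 31 tested enzymes in each knockdown against parental cells, ordered along the pathway, with filled points where the adjusted p was under 0.05. ENO2 and PFKP lie to the left of 0 with filled points in all 3 panels, and the glycogen enzymes at the bottom have filled points only to the right.

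Hexokinase traps glucose in the cell by phosphorylating it. HK2, the inducible hexokinase (ENSG00000159399, chromosome 2, 74834127 to 74893359, hg38), was 47.5, 12.1 and 11.9 CPM in parental replicates 1 to 3, 8.41, 6.86 and 11.2 CPM in shHIF2A, 5.99, 10.4 and 5.59 CPM in shJUNs, and 28.1, 28.02 and 24.3 CPM in shYAPTAZ. A single parental library stood about 4 times above the other parental ones, and those lay only just above the shHIF2A and shJUNs libraries. HK2 was called 2.67-fold lower in shHIF2A (log2 fold change -1.42 ± 0.46 SE, adjusted p = 0.0329) and 3.23-fold lower in shJUNs (-1.69 ± 0.45, adjusted p = 0.0113). Both calls rested on parental replicate 1: without it the adjusted p was 0.512 in shHIF2A and 0.258 in shJUNs. In shYAPTAZ the log2 fold change of HK2 was 0.18 (adjusted p = 0.8) with all libraries, and without parental replicate 1 HK2 was called higher there (1.16, adjusted p = 0.0422). The shHIF2A call also ended without shHIF2A replicate 1 (0.086) or 2 (0.119), when limma-voom was used (0.137) and when only the 6 libraries of those groups were fitted (0.0521), and the shJUNs call without shJUNs replicate 1 (0.0544) or 3 (0.0611).

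The shYAPTAZ libraries did not overlap either of the other knockdowns for HK2. It was 3.04-fold higher in shYAPTAZ than in shHIF2A (adjusted p = 0.0163) and 3.67-fold higher than in shJUNs (adjusted p = 0.00635), comparisons in which no parental library is contrasted. HK1, the hexokinase found in most tissues, was 68.4 to 76.9 CPM in the means of the 4 groups and was called in none of the 6 comparisons between groups.

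GPI, which turns glucose 6-phosphate into fructose 6-phosphate (ENSG00000105220, chromosome 19, 34359480 to 34402413), was 238, 285 and 260.3 CPM in parental libraries, 231, 232 and 248 CPM in shHIF2A, 185, 235 and 197 CPM in shJUNs, and 133, 150.0 and 133 CPM in shYAPTAZ. The 3 shYAPTAZ libraries were the lowest of the 12. GPI fell 1.88-fold in shYAPTAZ against parental cells (-0.91 ± 0.14, adjusted p = 5.53e-05), and was also lower there than in shHIF2A (-0.77, adjusted p = 0.000497) and in shJUNs (-0.57, adjusted p = 0.00771). In shHIF2A and shJUNs it did not pass against parental cells (adjusted p = 0.528 and 0.0884).

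Phosphofructokinase commits sugar to glycolysis, as tetramers of the platelet (PFKP), liver (PFKL) and muscle (PFKM) subunits. PFKP (ENSG00000067057, chromosome 10, 3066333 to 3137718) was 763, 647 and 558 CPM in parental libraries, 348, 304 and 325 CPM in shHIF2A, 401, 398 and 390.0 CPM in shJUNs, and 360.5, 322 and 347 CPM in shYAPTAZ. All 9 knockdown libraries lay below all 3 parental ones. It fell 2.01-fold in shHIF2A (-1.01 ± 0.13, adjusted p = 8.99e-06), 1.65-fold in shJUNs (-0.73 ± 0.13, adjusted p = 0.000329) and 1.91-fold in shYAPTAZ (-0.93 ± 0.13, adjusted p = 1.22e-05), and no pair of knockdowns was called different.

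PFKL followed another order. It was 105, 116 and 104 CPM in parental libraries, 69.3, 62.4 and 62.4 CPM in shHIF2A, 77.2, 79.05 and 73.97 CPM in shJUNs, and 113, 99.7 and 90.4 CPM in shYAPTAZ. The shHIF2A and shJUNs libraries lay below every parental one, while those of shYAPTAZ overlapped them. The fall was 1.68-fold in shHIF2A (-0.74 ± 0.16, adjusted p = 0.00262) and 1.41-fold in shJUNs (-0.50 ± 0.16, adjusted p = 0.0315). The shJUNs call ended without parental replicate 1 (0.0533) or 2 (0.116), without shJUNs replicate 1 (0.0875), 2 (0.0761) or 3 (0.111), and with no filter on low counts (0.095). PFKL was 1.56-fold higher in shYAPTAZ than in shHIF2A (adjusted p = 0.0081).

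PFKM was 41.97 ± 4.096 CPM in parental libraries, 53.02 ± 9.79 CPM in shHIF2A, 49.8 ± 10.1 CPM in shJUNs and 27.7 ± 8.03 CPM in shYAPTAZ (SD, n = 3 each). It was called in no knockdown against parental cells (adjusted p = 0.356, 0.531 and 0.0796) and was lower in shYAPTAZ than in shHIF2A (-0.95, adjusted p = 0.00969) and shJUNs (-0.85, adjusted p = 0.0202). The 3 subunits together summed to 806 ± 107 CPM in parental libraries, 443 ± 35.4 CPM in shHIF2A, 523 ± 17.7 CPM in shJUNs and 472 ± 27.2 CPM in shYAPTAZ.

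Aldolase splits fructose bisphosphate into triose phosphates. ALDOA, the main aldolase of most cultured cells, had 6 counts in all, 5 of them in parental libraries. Of its 3829 exon bases 1639 (42.8%) are shared, on the same strand, with the annotated gene ENSG00000285043, which had 0 counts. How reads in shared exons were counted was not stated in any label or header, so the ALDOA counts give no firm level. The same kind of overlap covered 33.4% of the exon bases of LDHB, which had 15186 counts. ALDOC, the aldolase of brain, had 0.281 to 3.49 CPM per library and was not tested.

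The later steps of glycolysis turn triose phosphates into pyruvate. TPI1, which interconverts the triose phosphates, was 514, 561 and 583 CPM in parental libraries, 451, 447 and 516 CPM in shHIF2A, 607, 668 and 660.4 CPM in shJUNs, and 669.6, 725 and 799 CPM in shYAPTAZ. It rose 1.32-fold in shYAPTAZ (0.40 ± 0.12, adjusted p = 0.0128), a call that ended without shYAPTAZ replicate 3 (0.0548) and in a fit of the 6 libraries of those groups (0.0682). Its levels in shJUNs and shYAPTAZ were above those in shHIF2A by 0.45 (adjusted p = 0.0171) and 0.63 (adjusted p = 0.00048) on the log2 scale.

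GAPDH, the oxidizing step and a gene often used as a loading control, was 2341, 2522 and 2283 CPM in parental libraries, 2043, 2154 and 2143 CPM in shHIF2A, 2479, 2837 and 2779 CPM in shJUNs, and 1633, 2684 and 2528 CPM in shYAPTAZ. It was called in none of the 6 comparisons, and shYAPTAZ replicate 1 was the lowest of the 12 libraries. Part of its exons (422 bases) lies opposite the gene ENSG00000269968, which had 2738 counts beside the 100584 of GAPDH. Whether the counting used strand is not given, so reads of these genes could be exchanged.

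PGK1, the first step that yields ATP, was 498, 624 and 613 CPM in parental libraries, 724, 662 and 703 CPM in shHIF2A, 582, 635 and 659.7 CPM in shJUNs, and 762, 759.7 and 809 CPM in shYAPTAZ. It rose 1.34-fold in shYAPTAZ (0.43 ± 0.12, adjusted p = 0.00857; 0.0584 in a fit of the 6 libraries of those groups). In shHIF2A its libraries lay above the parental ones as well, without passing the test (0.27 ± 0.11, adjusted p = 0.108).

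PGAM1, phosphoglycerate mutase, was 63.2, 78.2 and 83.1 CPM in parental libraries, 133, 131 and 103 CPM in shHIF2A, 119.6, 123 and 112 CPM in shJUNs, and 72.2, 95.2 and 107 CPM in shYAPTAZ. The shHIF2A and shJUNs libraries were all above the parental ones, and shYAPTAZ overlapped them. It rose 1.63-fold in shHIF2A (0.71 ± 0.18, adjusted p = 0.00815) and 1.58-fold in shJUNs (0.66 ± 0.18, adjusted p = 0.0122), the latter lost without parental replicate 1 (0.0598) or shJUNs replicate 2 (0.0507).

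Enolase makes phosphoenolpyruvate, and its 2 isoforms here went apart in shYAPTAZ. ENO1, the form of most tissues, was 1147, 1302 and 1546 CPM in parental libraries, 1110.2, 1145 and 1228 CPM in shHIF2A, 1373, 1506 and 1425 CPM in shJUNs, and 2076, 1747 and 1647 CPM in shYAPTAZ. Every shYAPTAZ library was above all others. ENO1 rose 1.37-fold in shYAPTAZ (0.45 ± 0.12, adjusted p = 0.00566) and was higher there than in shHIF2A (0.65, adjusted p = 0.000351) and in shJUNs (0.35, adjusted p = 0.0431).

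ENO2, the neuronal enolase (ENSG00000111674, chromosome 12, 6913745 to 6923698), fell in every knockdown and had the largest fall of the 31 members in shHIF2A and in shYAPTAZ. It was 67.01, 38.2 and 42.4 CPM in parental libraries, 7.54, 6.86 and 8.06 CPM in shHIF2A, 13.1, 19.8 and 17.7 CPM in shJUNs, and 12.3, 8.28 and 10.4 CPM in shYAPTAZ. None of the 9 knockdown libraries reached the lowest parental one. The fall was 6.54-fold in shHIF2A (-2.71 ± 0.32, adjusted p = 3.82e-06), 2.92-fold in shJUNs (-1.55 ± 0.30, adjusted p = 0.000753) and 4.79-fold in shYAPTAZ (-2.26 ± 0.31, adjusted p = 1.36e-05). ENO2 was 2.24-fold higher in shJUNs than in shHIF2A (adjusted p = 0.0286).

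PKM, pyruvate kinase, was 1283 ± 275 CPM in parental libraries, 1008 ± 97.5 CPM in shHIF2A, 1358 ± 80.1 CPM in shJUNs and 1469 ± 161 CPM in shYAPTAZ (SD, n = 3 each). It was called only between knockdowns, 1.46-fold higher in shYAPTAZ than in shHIF2A (adjusted p = 0.00592). Its gene makes 2 splice forms that gene counts do not separate.

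Lactate dehydrogenase interconverts pyruvate and lactate with LDHA (muscle) and LDHB (heart) subunits, and these moved in opposite directions in shHIF2A and shJUNs. LDHA (ENSG00000134333, chromosome 11, 18394560 to 18408425) was 1294, 1463 and 1439.8 CPM in parental libraries, 729, 819 and 857 CPM in shHIF2A, 1128, 1062 and 1057 CPM in shJUNs, and 1344, 1658 and 1739 CPM in shYAPTAZ. The shHIF2A libraries were the lowest, those of shJUNs lay between them and the parental ones, and shYAPTAZ overlapped parental cells. LDHA fell 1.75-fold in shHIF2A (-0.80 ± 0.11, adjusted p = 2.75e-05) and 1.29-fold in shJUNs (-0.37 ± 0.11, adjusted p = 0.0215). The shJUNs call ended without parental replicate 2 (0.0912) or 3 (0.0596) or shJUNs replicate 2 (0.086) or 3 (0.0915). LDHA was higher in shJUNs than in shHIF2A (0.43, adjusted p = 0.0173), and higher in shYAPTAZ than in shHIF2A (0.98, adjusted p = 1.45e-06) and in shJUNs (0.55, adjusted p = 0.00148).

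LDHB (ENSG00000111716, chromosome 12, 21635342 to 21757857) was 227, 302 and 354 CPM in parental libraries, 398, 395 and 412 CPM in shHIF2A, 449.8, 452 and 453 CPM in shJUNs, and 299, 279 and 268 CPM in shYAPTAZ. The shHIF2A and shJUNs libraries were all above the parental range. LDHB rose 1.53-fold in shJUNs (0.62 ± 0.14, adjusted p = 0.00321) and 1.36-fold in shHIF2A (0.45 ± 0.14, adjusted p = 0.0281). The shHIF2A call ended without parental replicate 1 (0.147) or 2 (0.0724), without shHIF2A replicate 1 (0.0616), 2 (0.0771) or 3 (0.076), and in a fit of the 6 libraries of those groups (0.0547).

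**Figure D2:**
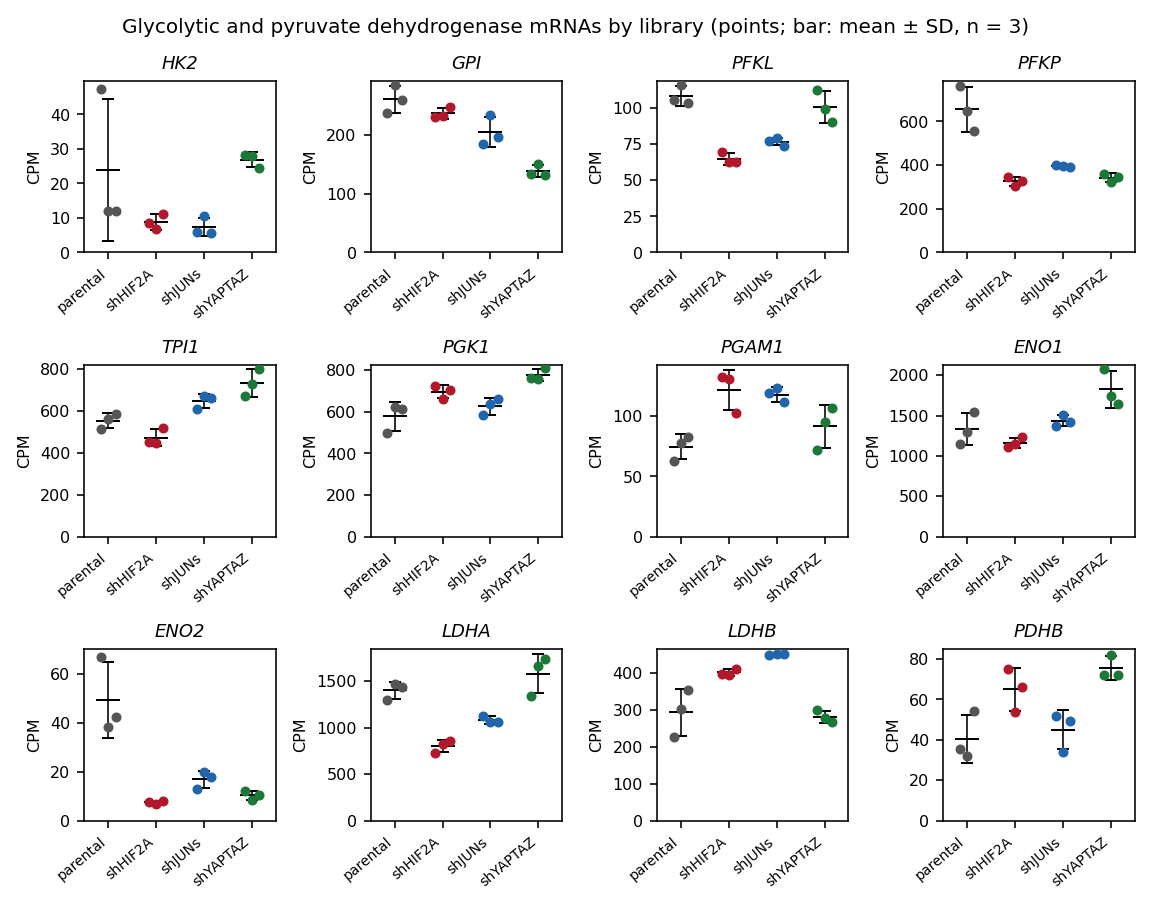
CPM in each library (points) with mean ± SD (n = 3) for 12 glycolytic and pyruvate dehydrogenase genes in parental, shHIF2A, shJUNs and shYAPTAZ cells. PFKP and ENO2 are lower in all 9 knockdown libraries, LDHA is lowest in shHIF2A, and the HK2 value of 47.5 CPM in parental replicate 1 stands alone.

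Of the 15 tested enzymes from hexokinase to lactate dehydrogenase, 3 rose in shYAPTAZ (TPI1, PGK1 and ENO1) and 3 fell (GPI, PFKP and ENO2). The other 9 were not called, and of all genes 13.0% rose and 12.3% fell. HIF1A is the HIF subunit known to drive glycolytic genes, and 786-O is known to lack it as a working protein. HIF1A was 4.89, 4.78 and 8.76 CPM in parental libraries, 11.015, 14.3 and 9.11 CPM in shHIF2A, 6.21, 8.01 and 6.70 CPM in shJUNs, and 150.3, 147 and 114 CPM in shYAPTAZ. It was 22.0-fold higher in shYAPTAZ than in parental cells (adjusted p = 1.25e-10). In shHIF2A it was called 1.86-fold higher (adjusted p = 0.0405), and in shJUNs it was not called (0.765). The part of HIF1A in these rises and falls was not tested.

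The mRNAs of the PFKFB enzymes, which make and remove the activator fructose 2,6-bisphosphate, were not called different in any comparison. PFKFB3 was 109 ± 24.97 CPM in parental libraries, 108 ± 10.7 CPM in shHIF2A, 139.8 ± 16.7 CPM in shJUNs and 108 ± 50.5 CPM in shYAPTAZ. PFKFB4 was 30.7, 9.84 and 9.89 CPM in parental libraries, where replicate 1 again stood above the other libraries, and 6.81 to 19.8 CPM in the knockdown libraries. PFKFB2 ranged from 2.102 to 11.9 CPM. The SE of its log2 fold changes against parental cells was 0.58 to 0.60, so a change of the size seen for PFKP was within 2 SE there. Its exons lie in part opposite YOD1, which had 675 counts beside 239 of PFKFB2.

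The pyruvate dehydrogenase complex turns pyruvate into acetyl-CoA. PDHB, the beta subunit of its first enzyme, was 35.3, 32.1 and 54.3 CPM in parental libraries, 75.1, 53.96 and 66.2 CPM in shHIF2A, 51.7, 33.9 and 49.2 CPM in shJUNs, and 72.2, 82.1 and 72.1 CPM in shYAPTAZ. All shYAPTAZ libraries were above the parental ones, and those of shHIF2A overlapped them. PDHB rose 1.86-fold in shYAPTAZ (0.89 ± 0.23, adjusted p = 0.00566) and 1.60-fold in shHIF2A (0.68 ± 0.23, adjusted p = 0.0398). The shHIF2A call ended without parental replicate 1 (0.14) or 2 (0.177), shHIF2A replicate 1 (0.147) or 3 (0.0861), shJUNs replicate 1 (0.0535) or 3 (0.0553) or shYAPTAZ replicate 2 (0.054), and when only the 6 libraries of those groups were fitted (0.0568). PDHA1, the alpha subunit, was 96.1 to 99.4 CPM and DLAT, the second enzyme, 34.5 to 48.2 CPM in the group means, and neither was called in any comparison.

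In the pentose phosphate pathway the enzymes that rearrange sugars moved and those that isomerize them did not pass. TKT, transketolase (ENSG00000163931, chromosome 3, 53224712 to 53256052), was 1107, 849 and 652 CPM in parental libraries, 561, 539 and 591 CPM in shHIF2A, 483, 528 and 520.0 CPM in shJUNs, and 658, 877 and 666 CPM in shYAPTAZ. All shHIF2A and shJUNs libraries lay below the lowest parental one. TKT fell 1.54-fold in shHIF2A (-0.63 ± 0.15, adjusted p = 0.00596) and 1.70-fold in shJUNs (-0.77 ± 0.15, adjusted p = 0.00108), and was higher in shYAPTAZ than in shJUNs (0.52, adjusted p = 0.0203).

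TALDO1, transaldolase, was 289, 388 and 432 CPM in parental libraries, 215, 261 and 245 CPM in shHIF2A, 375, 396 and 367 CPM in shJUNs, and 279, 338 and 398 CPM in shYAPTAZ. Its lowest libraries were the 3 of shHIF2A. TALDO1 fell 1.54-fold in shHIF2A (-0.62 ± 0.16, adjusted p = 0.0072), and shJUNs and shYAPTAZ were above shHIF2A by 0.66 (adjusted p = 0.00968) and 0.49 (adjusted p = 0.0286) on the log2 scale.

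PGD, which yields NADPH, was 98.2 ± 25.5 CPM in parental libraries, 127 ± 2.76 CPM in shHIF2A, 101 ± 16.4 CPM in shJUNs and 102 ± 6.55 CPM in shYAPTAZ, and was called in no comparison. RPIA and RPE, the isomerase and epimerase of pentose phosphates, were called in none either. RPIA was 6.81, 15.6 and 26.99 CPM in shYAPTAZ, a spread as wide as the level itself, and 24.03 to 28.3 CPM in parental cells. RPE was 35.9, 67.8 and 79.1 CPM in parental cells and 66.9 to 89.9 CPM in the knockdown libraries. The counts of RPE may hold reads of KANSL1L, which lies opposite 840 of its exon bases.

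The glycogen enzymes gave calls only upward. GYS1, the glycogen synthase of most tissues (ENSG00000104812, chromosome 19, 48968130 to 48993310), was 14.7, 20.2 and 18.9 CPM in parental libraries, 24.1, 23.4 and 39.6 CPM in shHIF2A, 39.3, 50.2 and 34.4 CPM in shJUNs, and 36.8, 35.3 and 43.9 CPM in shYAPTAZ. All 9 knockdown libraries lay above the parental ones. GYS1 rose 2.29-fold in shJUNs (1.19 ± 0.27, adjusted p = 0.00267) and 2.15-fold in shYAPTAZ (1.10 ± 0.27, adjusted p = 0.00391), and in shHIF2A it did not pass (0.68 ± 0.27, adjusted p = 0.0808). The shHIF2A libraries were not called different from either of the other knockdowns (adjusted p = 0.26 and 0.287).

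PYGB, the brain form of glycogen phosphorylase, was 50.6, 57.9 and 67.8 CPM in parental libraries, 82.03, 74.9 and 67.96 CPM in shHIF2A, 86.98, 86.8 and 82.2 CPM in shJUNs, and 118, 95.2 and 110.4 CPM in shYAPTAZ. The order of the groups was parental, shHIF2A, shJUNs and shYAPTAZ, with the parental and shHIF2A ranges touching. It rose 1.83-fold in shYAPTAZ (0.87 ± 0.17, adjusted p = 0.000745) and 1.45-fold in shJUNs (0.54 ± 0.17, adjusted p = 0.0323). The shJUNs call ended without parental replicate 1 (0.126) or 2 (0.0922), without shJUNs replicate 1 (0.0915), 2 (0.0911) or 3 (0.0737), and with no filter on low counts (0.0675).

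GBE1, the branching enzyme, was 69.5, 52.01 and 62.5 CPM in parental libraries, 53.6, 71.4 and 75.3 CPM in shHIF2A, 59.5, 55.5 and 53.9 CPM in shJUNs, and 94.4, 80.6 and 101 CPM in shYAPTAZ. The shYAPTAZ libraries alone lay above all others. GBE1 rose in shYAPTAZ (log2 fold change 0.59 ± 0.19, adjusted p = 0.0246), which ended without parental replicate 2 (0.122) or 3 (0.0534), without shYAPTAZ replicate 3 (0.0889) and in a fit of the 6 libraries of those groups (0.0624). UGP2, which makes the UDP-glucose that glycogen synthase uses, was 81.7 ± 11.7 CPM in parental cells and 106 to 112 CPM in the knockdown means (adjusted p = 0.0638, 0.0974 and 0.107). PGM1, which links glucose 1-phosphate to glucose 6-phosphate, was 102 to 126 CPM in the group means and was called in no comparison.

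**Figure D3:**
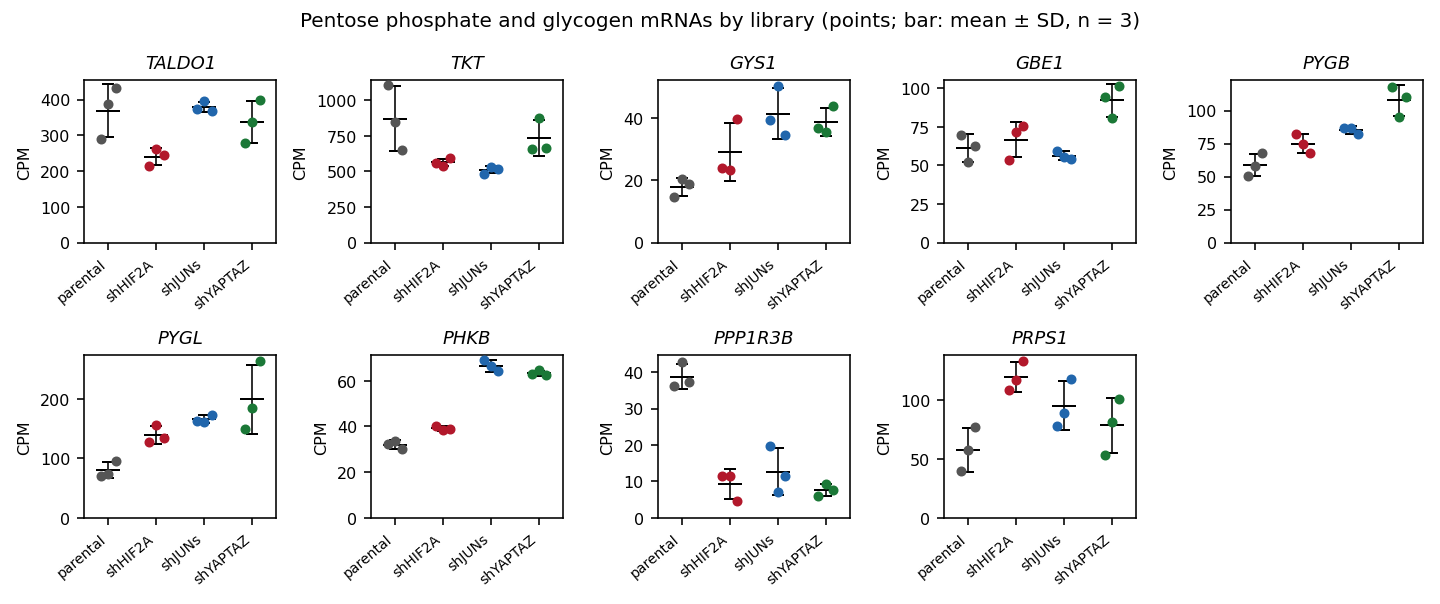
CPM in each library (points) with mean ± SD (n = 3) for 5 pentose phosphate and glycogen enzymes and 4 further genes of these pathways. GYS1 lies above the parental libraries in all 9 knockdown libraries, and PPP1R3B lies below them.

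The ratio of 2 isoforms of a step shows whether they changed by different amounts. For 8 such log2 count ratios an exact permutation test over all 369600 labelled partitions of the 12 libraries asked for any difference among the groups, and 5 passed after adjustment over the 8. With 3 libraries against 3 the smallest p such a test can give is 0.1, so single pairs of groups are described by their values. The LDHB/LDHA ratio differed among groups (permutation p = 0.000844, adjusted 0.00169): LDHB took 14.9%, 17.1% and 19.7% of the lactate dehydrogenase counts in parental cells, 35.3%, 32.6% and 32.5% in the shHIF2A libraries, 28.5%, 29.9% and 29.97% in those of shJUNs, and 18.2%, 14.4% and 13.3% in those of shYAPTAZ. The share was about 2 times as high in shHIF2A as in parental cells, with no overlap, and near the parental range in shYAPTAZ.

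The ENO2/ENO1 ratio differed as well (permutation p = 0.00013, adjusted 0.000519). ENO2 took 3.68% ± 1.596 of enolase counts in parental cells, 0.641% ± 0.0406 in shHIF2A, 1.15% ± 0.185 in shJUNs and 0.561% ± 0.07997 in shYAPTAZ (SD, n = 3 each). While this share fell in every knockdown, enolase counts summed to 1381 ± 190.4 CPM in parental libraries and to 1834 ± 226 CPM in shYAPTAZ, and ENO1 took 94.5% to 99.5% of them.

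Among the phosphofructokinases the PFKM/PFKL ratio (permutation p = 0.00013, adjusted 0.000519) and the PFKP/PFKL ratio (p = 0.00026, adjusted 0.000693) both differed. PFKM took 5.23% ± 0.404 of the counts of the 3 subunits in parental cells, 11.9% ± 1.25 in shHIF2A, 9.48% ± 1.64 in shJUNs and 5.87% ± 1.71 in shYAPTAZ. PFKL took 13.6% ± 1.78, 14.6% ± 0.543, 14.7% ± 0.106 and 21.4% ± 1.34 in the same order. So the share of PFKM was larger in shHIF2A and shJUNs, and that of PFKL in shYAPTAZ.

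HK2/HK1 passed narrowly (permutation p = 0.0309, adjusted 0.0495) and did not pass when any 1 of 10 libraries was left out, with adjusted p from 0.0516 to 0.11. Those 10 are every library but parental replicates 1 and 2. PFKFB4/PFKFB3 (permutation p = 0.512) and PFKFB2/PFKFB3 (p = 0.93) did not differ detectably. ALDOC/ALDOA (permutation p = 0.139) rests on the few counts above and has no reading.

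**Figure D4:**
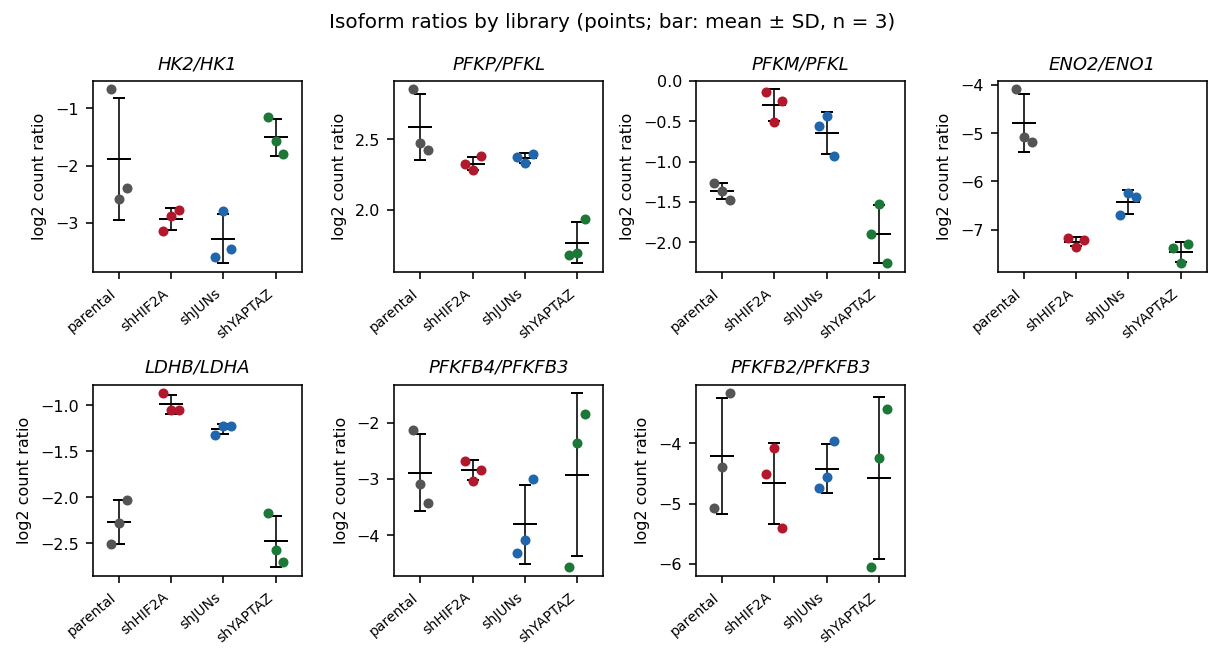
Log2 count ratios of 7 isoform pairs in each library (points) with mean ± SD (n = 3) by group; the aldolase pair is left out for its few counts. LDHB/LDHA is higher in shHIF2A and shJUNs than in parental and shYAPTAZ libraries, and ENO2/ENO1 is lower in all 9 knockdown libraries.

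The knockdowns were also set directly against each other. In shYAPTAZ 8 of 31 were higher and 3 lower than in shHIF2A, where 9.71% and 8.72% of all genes were. The 8 were HK2, PFKL, TPI1, ENO1, PKM, LDHA, TALDO1 and PYGB, and the 3 were GPI, PFKM and LDHB. Without shHIF2A replicate 1 the 8 became 5, and all genes higher went from 1195 to 907. Between shYAPTAZ and shJUNs 6 were higher (HK2, ENO1, LDHA, PDHB, TKT and GBE1) and 3 lower (GPI, PFKM and LDHB), against 7.87% and 8.27% of all genes. The 6 became 3 without shJUNs replicate 2 or shYAPTAZ replicate 2 and 2 without shJUNs replicate 3. All genes higher went from 968 to 626, 659 and 594 in the same order. The 3 lower became 1 without shJUNs replicate 2, where all genes lower went from 1017 to 731.

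In shJUNs against shHIF2A 4 members were higher (TPI1, ENO2, LDHA and TALDO1) and 0 lower, against 4.36% and 3.17% of all genes. The 4 became 0 without shHIF2A replicate 1 or shJUNs replicate 2 and 1 without shHIF2A replicate 2 or shJUNs replicate 3. All genes higher went from 536 to 360, 315, 324 and 306 in the same order. A fit of only those 6 libraries gave 8 members higher, and 879 of all genes. The count of 0 lower came from edgeR's quasi-likelihood test, with 1 member lower at an unadjusted p under 0.05, and DESeq2 and limma-voom gave 0 too.

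A further list of 58 genes of the same pathways, of which 40 were tested, holds the other isoforms, regulators and side branches. Of the 40, 6 rose and 5 fell in shHIF2A, 7 rose and 4 fell in shJUNs, and 4 rose and 6 fell in shYAPTAZ, against the shares of all genes given above. Any difference among the 4 groups was detected for 20 of the 40 and for 38.7% of all genes. The 5 that fell in shHIF2A became 2 without shHIF2A replicate 1 or 3, and 3 without any 1 parental or any 1 shJUNs library or with limma-voom. All genes that fell there went from 1082 to between 762 and 1056 in these fits. The 7 that rose in shJUNs became 4 without parental replicate 1 or 2 or shJUNs replicate 2 or 3. For all genes that count went from 1271 to between 846 and 952. The 6 that fell in shYAPTAZ became 2 without parental replicate 1 or shYAPTAZ replicate 2, and 3 without parental replicate 2. For all genes that count went from 1514 to between 1163 and 1204. Genes among those with the smallest p in each comparison follow.

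PPP1R3B, which brings protein phosphatase to glycogen and so activates glycogen synthase, was 38.8 ± 3.46 CPM in parental cells. It fell 4.16-fold in shHIF2A (adjusted p = 0.000747), 3.03-fold in shJUNs (0.00396) and 5.02-fold in shYAPTAZ (0.00015), while the synthase GYS1 rose in shJUNs and shYAPTAZ. PYGL, the liver glycogen phosphorylase, rose 1.74-fold in shHIF2A (adjusted p = 0.0047), 2.06-fold in shJUNs (0.0004) and 2.49-fold in shYAPTAZ (1.99e-05). PHKB, a subunit of the kinase that activates phosphorylase, rose 2.08-fold in shJUNs (adjusted p = 0.000338) and 1.98-fold in shYAPTAZ (0.000479), and was not called in shHIF2A (0.307).

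PRPS1, which makes the ribose donor for nucleotides, rose 2.06-fold in shHIF2A (adjusted p = 0.0039) and 1.64-fold in shJUNs (0.0378). Of the pyruvate dehydrogenase genes, DLD, the third enzyme of the complex, rose 1.66-fold in shHIF2A (adjusted p = 0.00407) and 1.71-fold in shJUNs (0.00233). PDP1, the phosphatase that activates the complex, fell 2.14-fold in shJUNs (adjusted p = 0.00178) and 1.67-fold in shYAPTAZ (0.0218).

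HKDC1, a further hexokinase, had a mean of 95.05 ± 7.31 CPM in parental libraries and 91.5 ± 2.66 CPM in those of shHIF2A. It fell 1.61-fold in shJUNs (adjusted p = 0.0104) and 4.47-fold in shYAPTAZ (4.98e-08). PCK2, the mitochondrial enzyme that makes phosphoenolpyruvate, fell 5.13-fold in shHIF2A (adjusted p = 3.36e-07), 1.66-fold in shJUNs (0.0185) and 1.61-fold in shYAPTAZ (0.0207). Some of these calls ended when 1 library was left out. That of HKDC1 in shJUNs ended without shJUNs replicate 2 (0.0764). That of PDP1 in shYAPTAZ ended without parental replicate 1 (0.107) or shYAPTAZ replicate 2 (0.0772) or 3 (0.0937). That of PCK2 ended in shJUNs without parental replicate 1 (0.0721) or 2 (0.0712) or shJUNs replicate 1 (0.0742) or 3 (0.0807), and in shYAPTAZ without parental replicate 1 (0.0741) or 2 (0.0752) or shYAPTAZ replicate 2 (0.0738). That of PRPS1 in shJUNs ended without parental replicate 1 (0.183) or 2 (0.102), shHIF2A replicate 2 (0.0544), shJUNs replicate 2 (0.0722) or 3 (0.216) or shYAPTAZ replicate 2 (0.0515).

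Promoter sequence is shown for 4 members called lower in shHIF2A with the largest fitted changes there: ENO2, HK2, PFKP and LDHA. The place of HK2 among them rested on parental replicate 1, without which its log2 fold change was -0.45. The 250 bases before each RefSeq start (GRCh38.p14, all on the plus strand) were searched on both strands for ACGTG and GCGTG, the core of the HIF response element, for TGACTCA and its reverse complement TGAGTCA (AP-1), and for GGAATG (TEAD). Matches are in capitals, and CACGTG holds an ACGTG on each strand. The ENO2 window (chr12:6914330-6914579) lies in an exon of a longer transcript of the same gene, so only its 2 matches are shown, each with 5 bases on either side. The PFKP window lies inside the deposited gene model, outside its exons, and the LDHA sequence stops before the first exon.
ENO2, chr12:6914457-6914471: ctcgtACGTGcgcct
ENO2, chr12:6914481-6914497: gctccTGACTCAtcggg
HK2, chr2:74833877-74834126: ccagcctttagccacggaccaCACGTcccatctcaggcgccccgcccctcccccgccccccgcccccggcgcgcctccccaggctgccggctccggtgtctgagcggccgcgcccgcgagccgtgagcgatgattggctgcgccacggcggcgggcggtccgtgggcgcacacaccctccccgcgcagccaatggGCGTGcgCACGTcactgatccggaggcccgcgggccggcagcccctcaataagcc
PFKP, chr10:3067720-3067969: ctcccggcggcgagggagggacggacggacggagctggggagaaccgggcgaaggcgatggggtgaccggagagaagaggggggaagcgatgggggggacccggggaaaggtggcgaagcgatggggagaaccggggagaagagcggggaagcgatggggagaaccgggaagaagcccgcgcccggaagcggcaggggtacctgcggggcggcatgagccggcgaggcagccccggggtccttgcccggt
LDHA, chr11:18394313-18394559: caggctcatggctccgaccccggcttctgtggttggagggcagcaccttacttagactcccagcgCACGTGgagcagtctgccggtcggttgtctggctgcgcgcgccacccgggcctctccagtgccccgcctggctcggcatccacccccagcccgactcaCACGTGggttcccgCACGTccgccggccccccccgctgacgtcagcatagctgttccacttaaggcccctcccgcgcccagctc

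ENO2 had 1 HIF core, 118 to 114 bases before its start, and the AP-1 motif 94 to 88 bases before it. HK2 had HIF cores at 229 to 225, 55 to 51 and 48 to 44 bases, LDHA at 185 to 180, 87 to 82 and 73 to 69 bases, and PFKP had no match. Over the 35116 promoters of this length in RefSeq, 43.2% held ACGTG or GCGTG, 4.2% held the AP-1 motif and 11.9% held GGAATG. Of the 32 members with a promoter entry (PFKFB2 had none) 21 (65.6%) held a HIF core, 1 (3.12%), ENO2, held the AP-1 motif and 3 (9.38%), ENO1, RPIA and PGAM1, held GGAATG. These are matches of letters in a window and say nothing of binding in these cells.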

How the data were processed

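RNA of 12 libraries was measured by BRB-seq, a barcoded 3′ end method, per the labels' protocols. The values are raw counts per gene, deposited by the authors after Trim Galore and STAR on hg38, per the submitters' processing notes. The counting program, its use of strand, the annotation, handling of molecular identifiers and tool versions were each not given in the sources used here. The table has the column layout of featureCounts, per the file headers. One gene, broken over 3 lines, was left out of 62705 lines, and symbols were matched by gene ID, which named 62624 genes and left 78 unnamed.

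Counts were tested in edgeR 4.0.16 (R 4.3.3) with TMM scaling, filterByExpr with a minimum count of 10, and a robust quasi-likelihood model of 4 group means over all 12 libraries. It left 12301 genes with a common dispersion of 0.0628, a coefficient of variation of 25.1%. SE is the size of the log2 fold change divided by the root of F. Isoform ratios used counts plus 0.5. SE and SD cover only the spread between these libraries, and floors cover counting error only. Values in every library are given for members called against parental cells with no overlap, and for a few others (GAPDH, PFKFB4, RPIA, RPE) chosen after their values were seen; of the further list, at most the 4 smallest p per comparison are named, and some that this rule names are not reported here. The members and lists were chosen with earlier results of these data known. Alternatives were DESeq2 1.42.0, limma-voom (limma 3.58.1), other scalings and filters, a fit of 6 libraries, pseudogene counts added, a replicate block and each library left out. Promoters came from RefSeq (GRCh38.p14). Of the tested members, pseudogenes of the same name held at most 1.35% of the counts (PGAM1).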

Additional observations from a re-analysis of the deposited data

How the results depend on the processing

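Of 93 pairs of member and knockdown against parental cells 30 were called. Of these 19 kept their call in all of up to 21 alternatives and 11 lost it in at least 1. Of the 63 not called 7 passed in some, and none changed direction after a call. HK2 in shYAPTAZ passed without parental replicate 1, PKM in shHIF2A without parental replicate 1 or shYAPTAZ replicate 1 or 3, with no filter and with the block, and PFKM in shYAPTAZ without shYAPTAZ replicate 2 and with the block. TKT in shYAPTAZ passed without parental replicate 3 and RPIA in shYAPTAZ without shYAPTAZ replicate 3, and GPI in shJUNs and UGP2 in shHIF2A with the block. No other scaling moved a count of members by over 1.5 times. The fit of the 6 libraries of a comparison gave 1 member higher in shHIF2A, 4 higher in shYAPTAZ, 8 higher in shJUNs than in shHIF2A and 3 further pathway genes lower in shYAPTAZ, and limma-voom gave 3 further pathway genes lower in shHIF2A. With 1 library left out in turn, the members higher and lower ranged from 1 to 3 and 6 to 8 in shHIF2A, 2 to 4 and 3 to 6 in shJUNs, 5 to 8 and 3 to 4 in shYAPTAZ, 0 to 6 and 0 to 0 in shJUNs against shHIF2A, 5 to 9 and 2 to 3 in shYAPTAZ against shHIF2A, and 2 to 7 and 1 to 4 in shYAPTAZ against shJUNs. For the further pathway genes, shHIF2A gave 4 to 8 higher and 2 to 6 lower, shJUNs 4 to 7 and 3 to 5, and shYAPTAZ 3 to 5 and 2 to 7. Over all genes these fits gave 772 to 1408 higher and 762 to 1279 lower in shHIF2A against parental cells. In shJUNs they gave 846 to 1450 and 672 to 1251, and in shYAPTAZ 1246 to 1656 and 1163 to 1563. Members differing among the groups ranged from 17 to 21, and isoform ratios from 4 to 6. The causes were not tested.

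The labels name no batch or day that the replicate numbers share. Over 18 pairs of the same number the correlation of deviations from the group means was -0.01 to 0.22, over 0.1 in 5, against at most 0.04 for pairs of other numbers. With 8 of 12 libraries correlating best with their own number, this is a hint of pairing from the data, not the design. The number as a replicate block moved the genes called in shHIF2A from 1211 higher and 1082 lower to 1513 and 1365. In shJUNs it moved them from 1271 and 1099 to 1564 and 1329, and in shYAPTAZ from 1599 and 1514 to 1781 and 1727. With it, shHIF2A had 4 members higher and 8 lower, shJUNs 4 and 7, and shYAPTAZ 7 and 4.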
